A study of Mus musculus with 4 samples.

Results

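The innate sensors of cytosolic and endosomal nucleic acids were followed in aorta of GGPPS knockout and wild-type mice. The 10 genes were taken by symbol from the 24346 rows that each library lists. They are Ddx58, Ifih1, Dhx58 and Mavs for cytosolic RNA, Mb21d1, Tmem173 and Aim2 for cytosolic DNA, Zbp1 for left-handed nucleic acids, and Tlr3 and Toll-like receptor 7 (Tlr7) for endosomal RNA. GGPPS, the product of Ggps1, makes geranylgeranyl diphosphate, the lipid that anchors many small GTPases to membranes. Aorta of 3-week-old C57BL/6 mice gave 2 libraries labelled KO and 2 labelled WT, and the labels name males and females for each library. The cells in which Ggps1 was deleted, the deleted exon and the number of animals per library are not given in the sources used here, so the spread between libraries of a genotype may be partly technical. Ggps1 stood at 1.18 and 1.07 FPKM in the knockout libraries, against 8.96 and 10.6 FPKM in the wild-type libraries, which is the direction of the labels; 5.4% of its exon length overlaps Arid4b on the opposite strand. FPKM is a fragment count scaled for transcript length and library size, so levels may be compared between genes. Contractile smooth muscle markers, the defining genes of the aortic media, were present in each library and summed to 4953 and 6569 FPKM in knockout, against 20911 and 23277 FPKM in wild type.

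Cells recognise foreign or misplaced nucleic acids by where these molecules lie and by their shape. Ddx58 encodes RIG-I and Ifih1 encodes MDA5, RNA helicases that signal through caspase recruitment domains to MAVS, an adaptor on the outer mitochondrial membrane. Dhx58 encodes LGP2, a helicase of the same family without those domains. Mb21d1 encodes cGAS, which turns cytosolic DNA into the messenger cGAMP, and Tmem173 encodes STING, the endoplasmic reticulum protein that cGAMP activates. AIM2 binds cytosolic DNA and builds an inflammasome, ZBP1 binds Z-form nucleic acids and engages RIPK3, and TLR3 and TLR7 read RNA inside endosomes. Several of these genes are themselves known targets of interferon, which acts on many promoters through an element called ISRE.

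The promoter windows of the helicases that open this pathway and of their common adaptor are shown because the helicase genes and Mavs moved in opposite directions. Each runs from 250 bases before to 50 bases after the RefSeq start (GRCm38.p6, the assembly also called mm10), 5′ to 3′, and capitals mark matches to the ISRE core on either strand, which is GAAA, then any 2 bases, then GAAA.
Ddx58 promoter, chr4:40239776-40240075, minus strand: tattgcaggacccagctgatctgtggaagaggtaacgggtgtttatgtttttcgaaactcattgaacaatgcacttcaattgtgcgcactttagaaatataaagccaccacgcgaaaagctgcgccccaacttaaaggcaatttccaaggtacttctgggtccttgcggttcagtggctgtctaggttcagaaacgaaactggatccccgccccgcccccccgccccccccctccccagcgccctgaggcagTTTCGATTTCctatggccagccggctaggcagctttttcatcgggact
Ifih1 promoter, chr2:62646206-62646505, minus strand: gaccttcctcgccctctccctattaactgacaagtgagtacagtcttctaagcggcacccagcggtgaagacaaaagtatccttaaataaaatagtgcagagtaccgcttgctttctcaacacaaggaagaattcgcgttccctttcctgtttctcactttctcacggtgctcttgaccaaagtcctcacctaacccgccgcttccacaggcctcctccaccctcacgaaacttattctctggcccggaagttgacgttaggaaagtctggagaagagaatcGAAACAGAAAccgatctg
Mavs promoter, chr2:131233813-131234112, plus strand: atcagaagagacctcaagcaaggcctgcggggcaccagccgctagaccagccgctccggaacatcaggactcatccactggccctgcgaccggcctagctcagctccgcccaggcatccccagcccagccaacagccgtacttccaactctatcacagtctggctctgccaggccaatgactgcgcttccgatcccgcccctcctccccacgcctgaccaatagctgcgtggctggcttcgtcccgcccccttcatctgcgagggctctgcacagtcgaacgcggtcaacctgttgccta

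The Ddx58 window held 1 match, on the strand opposite to transcription and beginning 3 bases into the transcribed part. The Ifih1 window held 1 match beginning 33 bases into the transcribed part, and the Mavs window held no match of these letters. Of all 32851 windows of this length in the RefSeq table, 3.44% held a match. Windows were found for 6 of the 10 genes, and those of Mb21d1, Aim2 and Tlr3 held no match either. Like Ddx58 and Ifih1, and unlike Mavs, these genes had both knockout libraries above both wild-type libraries. No window was found for Dhx58, Tmem173, Zbp1 and Tlr7, so these were not searched. A match is a string of letters and says nothing of binding.

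All 3 cytosolic RNA helicase genes were higher in knockout aorta. Ddx58 (chromosome 4, 40203773 to 40239828, minus strand, 18 exons) stood at 8.67 and 10.03 FPKM in knockout, against 3.83 and 3.29 FPKM in wild type. It rose by 1.18 ± 0.13 on the log2(FPKM + 1) scale (estimate ± SE, limma adjusted p = 2.74e-06), with no overlap between genotypes. Ifih1 (chromosome 2, 62595798 to 62646255, minus strand) stood at 3.91 and 4.83 FPKM in knockout, against 0.635 and 0.665 FPKM in wild type. Its log2 fold change was 1.70 ± 0.13 (limma adjusted p = 8.45e-08). Dhx58, the helicase without signalling domains and known as a regulator of the other helicases, had the largest change of this family. It lies on chromosome 11 (100694884 to 100704271, minus strand) and stood at 6.81 and 7.74 FPKM in knockout, against 0.463 and 0.559 FPKM in wild type. That is a 14.2-fold ratio of means and a log2 fold change of 2.45 ± 0.13 (limma adjusted p = 1.84e-09). The ratio of Dhx58 to Ddx58 FPKM was 0.786 and 0.772 in the knockout libraries and 0.121 and 0.170 in the wild-type libraries. That of Ifih1 to Ddx58 moved the same way, at 0.452 and 0.481 in knockout, against 0.166 and 0.202 in wild type. The regulator and MDA5 transcripts thus both came closer in level to RIG-I transcripts in knockout.

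Mavs, the adaptor that RIG-I and MDA5 share, went the other way. It lies on chromosome 2 (131234063 to 131248025, plus strand) and stood at 13.7 and 11.4 FPKM in knockout, against 19.2 and 16.9 FPKM in wild type. Both knockout libraries were below both wild-type libraries, and the log2 fold change was -0.49 ± 0.12 (limma adjusted p = 0.0035). Without wild-type library 1, the one with the highest Mavs value, the change was -0.40 and the call ended. That fit had a larger SE, 0.20 against 0.12, and the change was smaller, -0.37, without knockout library 2. Over the other alternatives the value lay between -0.74 and -0.37. The summed FPKM of the 3 helicases was 1.42 and 1.97 times that of Mavs in the knockout libraries and 0.257 and 0.268 times in the wild-type libraries. The helicases together were thus above the adaptor in FPKM in knockout and below it in wild type.

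**Figure D1:**
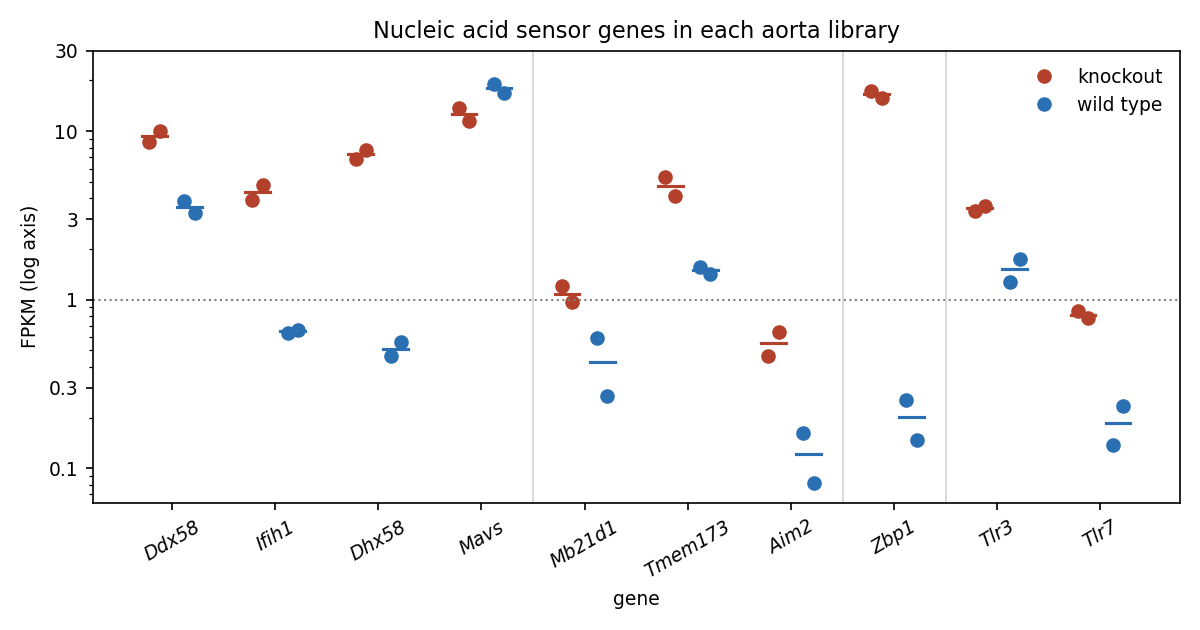
FPKM (log axis) of the 10 sensor genes, with a dot for each library, a bar at each genotype's mean, and a dotted line at 1 FPKM, the level that at least 2 libraries had to reach for a gene to be tested. Dots of the genotypes do not overlap for any of the 10 genes, and knockout is below wild type for Mavs only. Of all 17542 rows above 0, 38.1% had both knockout libraries above both wild-type libraries and 35.0% both below.

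Among the DNA sensing genes, Tmem173 was the best expressed and the one member tested. Tmem173 (chromosome 18, 35733679 to 35740554, minus strand) stood at 5.37 and 4.12 FPKM in knockout, against 1.57 and 1.42 FPKM in wild type. STING transcripts rose by 1.19 ± 0.14 on the log2 scale (limma adjusted p = 4.08e-06). Mb21d1, for cGAS (chromosome 9, 78430526 to 78443237, minus strand), stood at 1.20 and 0.967 FPKM in knockout, against 0.591 and 0.267 FPKM in wild type. It missed the filter of 1 FPKM in 2 libraries by the second knockout library. Aim2 (chromosome 1, 173350879 to 173466040, plus strand) was the lowest of the 10 genes in both genotypes, at 0.465 and 0.648 FPKM in knockout, against 0.163 and 0.0821 FPKM in wild type. In a fit of all 17542 rows above 0 in any library, in which 26.3% were called higher and 21.6% lower, Mb21d1 had a log2 fold change of 0.55 ± 0.13 (limma adjusted p = 0.0182) and Aim2 one of 0.47 ± 0.08 (limma adjusted p = 0.005). In bulk tissue, a change in the number of cells that carry a transcript and a change in its amount per cell cannot be told apart.

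Zbp1 had by far the largest change of the group. This gene (chromosome 2, 173206612 to 173218923, minus strand) was at 17.3 and 15.7 FPKM in knockout, against 0.256 and 0.147 FPKM in wild type. It ranked 8th of the 10 by mean level in wild type and 1st in knockout. The ratio of means was 81.9-fold and the log2 fold change 3.87 ± 0.13 (limma adjusted p = 2.28e-11). Of 12314 tested genes, 0.374% had a log2 fold change at least as large, Zbp1 included. Zbp1 entered the test through the knockout libraries alone, which favours a large rise. With so low a wild-type level the size depends on the pseudocount, and the log2 fold change was 5.81 with 0.1 and 2.05 with 5 in its place.

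Of the endosomal receptors, Tlr3 was tested and rose. Tlr3 (chromosome 8, 45395665 to 45411080, minus strand), the receptor for double-stranded RNA, stood at 3.35 and 3.61 FPKM in knockout, against 1.27 and 1.75 FPKM in wild type. Its log2 fold change, 0.84 ± 0.13 (limma adjusted p = 8.26e-05), was the smallest of the 6 that rose, and 14.4% of tested genes had a log2 fold change at least as high. Tlr7 (chromosome X, 167304929 to 167330558, minus strand), the receptor for single-stranded RNA, stayed under the filter at 0.855 and 0.778 FPKM in knockout, against 0.137 and 0.233 FPKM in wild type. With no filter its log2 fold change was 0.62 ± 0.07 (limma adjusted p = 0.00129). Exons of Tlr3, Mb21d1 and Dhx58 overlap genes on the opposite strand over 7.3%, 4.9% and 4.3% of their length, and reads from those genes cannot be told apart if counting ignored strand, which the sources used here do not say.

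Read against all genes, the calls need care because the transcriptomes differed widely. Of the 10 sensor genes 7 were tested, of which 6 were called higher and 1 lower at an adjusted p under 0.05. Over all 12314 tested genes 35.2% were called higher and 30.6% lower. Under a filter of 5 FPKM, 37.9% of the 9179 genes left were higher and 30.4% lower; without wild-type library 1 the shares were 29.1% and 24.7%. Ifih1, Dhx58 and Zbp1 were under 1 FPKM in both wild-type libraries and entered the test through the knockout libraries alone. Of 588 such genes 97.4% were called higher, so for these 3 genes the call carries little beyond the filter. That filter also fixes the direction of their change and bears on its size, which is given as a description. Ddx58, Tmem173, Tlr3 and Mavs were above 1 FPKM in both wild-type libraries, where 31.6% of 11549 genes were called higher and 32.6% lower. Without any filter, 9 of the 10 genes had both knockout libraries above both wild-type libraries, as did 38.1% of the 17542 rows above 0. The other, Mavs, was among the 35.0% with both below. Among tested genes those shares were 43.6% above and 39.6% below. With column totals made equal, the median over all tested genes moved to -0.20 from 0.03 as deposited (log2), and 3116 genes (25.3%) were called higher and 5580 (45.3%) lower, where the deposited scale gave 4332 and 3764. The 7 tested genes kept their direction and call there, with Ddx58 at 0.96 and Mavs at -0.74. A log2 fold change of at least 1 was seen for 5 of the 7 (Ddx58, Ifih1, Dhx58, Tmem173 and Zbp1) and for 10.9% of tested genes. A value of at least 2 was seen for Dhx58 and Zbp1 and for 2.71% of tested genes, and one of at least 3 for Zbp1 and 0.780%. These shares are over all tested genes, while Ifih1, Dhx58 and Zbp1 entered through the knockout libraries alone. The counts of sensor genes also depend on the pseudocount. With 5 in place of 1, only Dhx58 (1.15) and Zbp1 (2.05) of the 7 reached 1, and Ifih1 was at 0.73, Ddx58 at 0.74 and Tmem173 at 0.58. With 0.1, Tlr3 also reached 1, and Ifih1 was at 2.57.

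**Figure D2:**
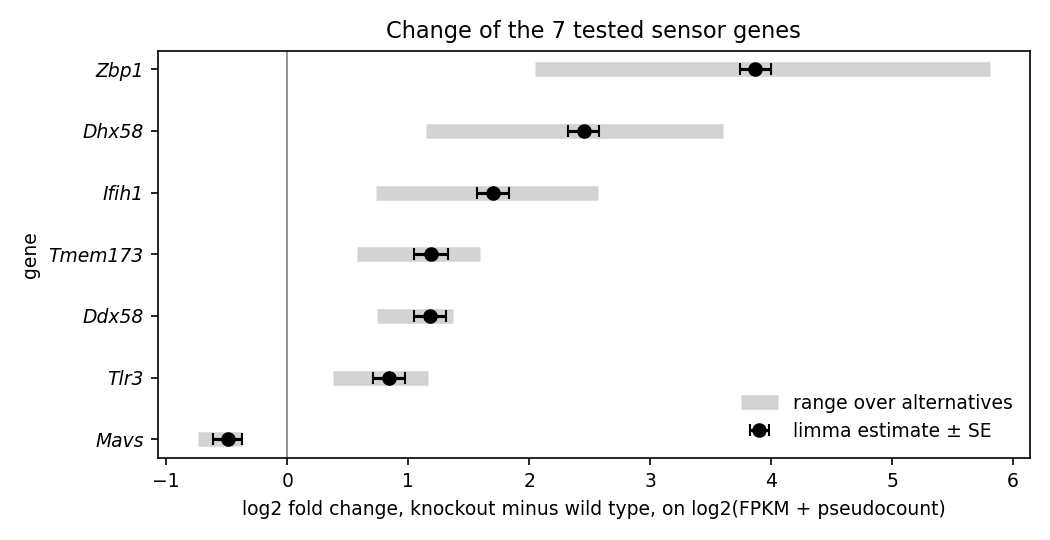
Log2 fold change, knockout minus wild type, of the 7 tested sensor genes, with the limma estimate and its SE (black) and the range over the alternatives of normalization, filter, pseudocount, estimation and left-out library (grey). The grey ranges lie above 0 for 6 genes and below 0 for Mavs, and the widest, from 2.05 to 5.81, belongs to Zbp1.

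The make-up of the group as a whole turned over. The 10 genes summed to 61.6 and 59.9 FPKM in the knockout libraries, against 28.1 and 25.3 FPKM in the wild-type libraries. Mavs held 22.2% and 19.1% of that sum in knockout, against 68.2% and 66.7% in wild type. Zbp1 held 28.1% and 26.3% in knockout, against 0.912% and 0.583% in wild type. By mean level the order in knockout was Zbp1, Mavs, Ddx58, Dhx58, Tmem173, Ifih1, Tlr3, Mb21d1, Tlr7 and Aim2. In wild type it was Mavs, Ddx58, Tlr3, Tmem173, Ifih1, Dhx58, Mb21d1, Zbp1, Tlr7 and Aim2. Neighbours whose library values overlapped were Tmem173 with Ifih1 in knockout, and Tlr3 with Tmem173, Dhx58 with Mb21d1 and Zbp1 with Tlr7 and Tlr7 with Aim2 in wild type.

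**Figure D3:**
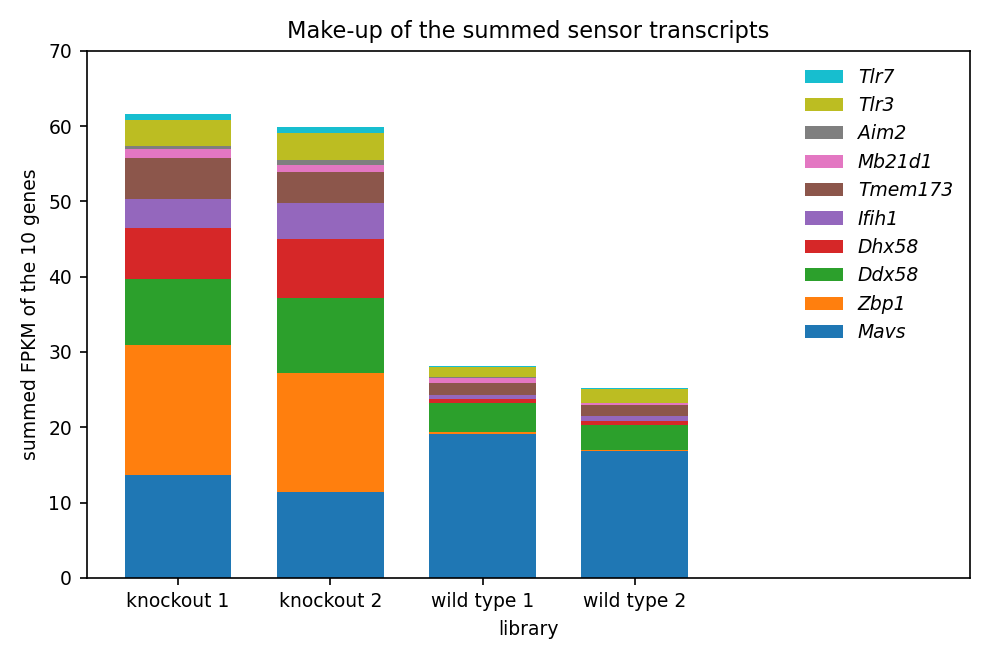
Summed FPKM of the 10 sensor genes in each library, stacked by gene with bars from 0. The knockout sums, 61.6 and 59.9 FPKM, are above the wild-type sums, 28.1 and 25.3 FPKM, and the Zbp1 and helicase segments are larger in knockout while the Mavs segment is smaller.

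Immune cell markers moved in the same libraries. The 12 macrophage markers summed to 565 and 484 FPKM in knockout, against 98.3 and 103 FPKM in wild type; 10 rose, among them Lyz2 and Cd68, Mertk fell and Cd163 was not called. The 10 general leukocyte markers summed to 252 and 203 FPKM in knockout, against 16.8 and 18.1 FPKM in wild type, and all 10 rose, among them Cd52 and Coro1a. Of these markers, 2 macrophage and 4 leukocyte ones entered through the knockout libraries alone, a class in which 97.4% of genes were called higher. Over all tested genes 35.2% were called higher and 30.6% lower. Endothelial markers summed to 70.9 and 87.6 FPKM in knockout, against 250 and 258 FPKM in wild type, and 7 of 7 tested fell. The 10 dendritic cell markers summed to 541 and 517 FPKM in knockout, against 64.2 and 66 FPKM in wild type. Most of that sum was Bst2, which is also interferon-induced, at 527 and 501 FPKM in knockout, against 51.3 and 52.9 FPKM in wild type. Itgax, an integrin of dendritic cells and some macrophages, was at 1.06 and 1.37 FPKM in knockout, against 0.00897 and 0.0217 FPKM in wild type, and rose by 1.12 on the log2 scale. It entered the test through the knockout libraries alone. Of the 4 dendritic cell markers tested, 2 were called higher and 2 were not called. Of the 10 listed, 5 had both knockout libraries above both wild-type libraries and 3 had both below. Over all rows above 0 those shares were 38.1% and 35.0%. Tcf4, which is expressed in many cell types, was not called at 7.60 and 8.56 FPKM in knockout, against 6.65 and 7.36 FPKM in wild type. The 7 T and NK cell genes summed to 1.11 and 0.453 FPKM in knockout, against 0.0587 and 0.0832 FPKM in wild type, and the 5 B cell genes to 0.648 and 0.913 FPKM in knockout, against 0.311 and 0.288 FPKM in wild type. Siglech, a marker of plasmacytoid dendritic cells that was picked after its values were seen, was at 0.0300 and 0 FPKM in knockout, against 0.0347 and 0.0429 FPKM in wild type. Values this low in bulk tissue do not settle whether such cells were present.

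The sensor genes differed in how they compared with the macrophage markers. Tlr7 stood at 0.151 and 0.161 FPKM per 100 FPKM of macrophage markers in knockout, against 0.139 and 0.226 in wild type, so the genotypes overlapped. Aim2 overlapped as well, at 0.0823 and 0.134 per 100 FPKM of markers in knockout, against 0.165 and 0.0797 in wild type. Zbp1 did not, at 3.06 and 3.25 per 100 FPKM of markers in knockout, against 0.260 and 0.143 in wild type. Ifih1 and Dhx58 were also above wild type on this scale, and Ddx58, Mb21d1, Tmem173, Tlr3 and Mavs were below it. The marker sum includes Mertk, which fell, at 13.4 and 16.9 FPKM in knockout, against 21.1 and 24.6 FPKM in wild type. It makes up a larger part of the wild-type sum, and the places of Ifih1 and Tlr7 depend on its inclusion. Of all rows above 0, 5.69% were above and 81.6% below by the same comparison. Per 100 FPKM of general leukocyte markers only Zbp1 remained above wild type among the 10 genes, at 6.85 and 7.76 in knockout, against 1.53 and 0.815 in wild type, beside 3.38% of all rows above 0; 85.2% of rows were below. The part of these cells in the result was not tested.

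**Figure D4:**
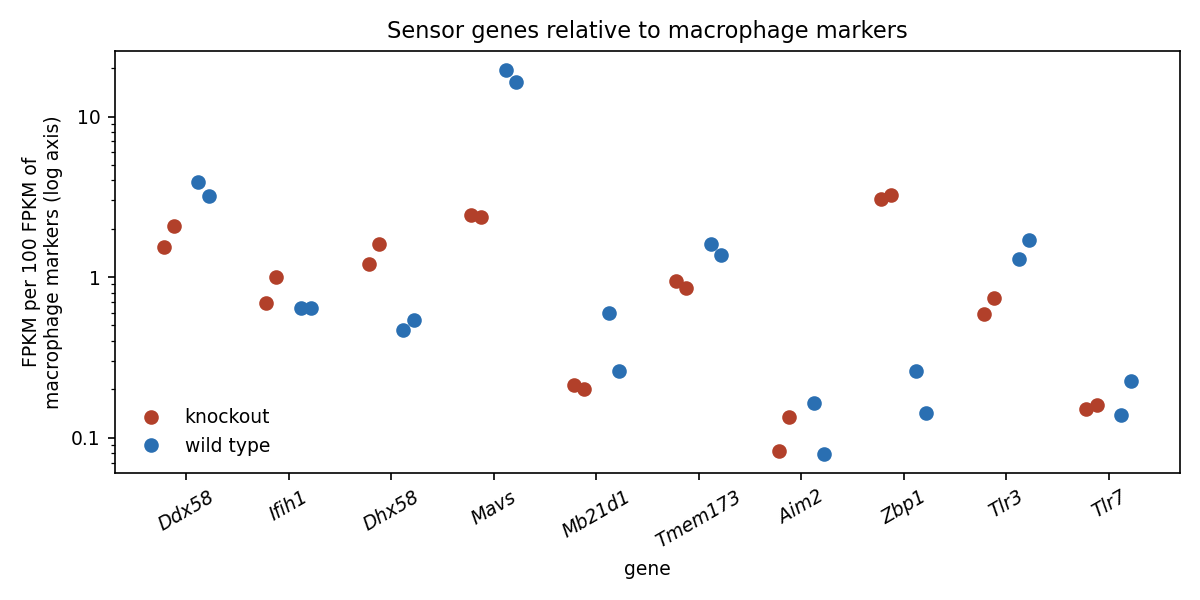
FPKM of each sensor gene per 100 FPKM of the 12 macrophage markers (log axis), with a dot for each library. Knockout dots lie above wild-type dots for Ifih1, Dhx58 and Zbp1, overlap them for Aim2 and Tlr7, and lie below them for the other 5 genes. The markers include Mertk, which fell, and the places of Ifih1 and Tlr7 depend on its inclusion. Of all rows above 0, 5.69% were above and 81.6% below by the same comparison.

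Genes that work with the sensors were read from 11 lists, of which 147 of 188 genes in the files were tested. Of these, 100 were called higher and 15 lower, which is 68.0% and 10.2%, against 35.2% and 30.6% of all tested genes. The median log2 fold change was 0.65, against 0.03 over all tested genes, and 22 of the 147 entered the test through the knockout libraries alone. With equal column totals the counts were 83 higher and 24 lower. These lists were chosen with earlier results of the same data known, so their direction is a description. The counts of each list below are to be read beside the 35.2% higher and 30.6% lower of all tested genes.

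Other RNA sensors and antiviral RNA binders were called higher in 10 of 15 tested cases and lower in 2 (median 1.18). Of the 15, 5 entered the test through the knockout libraries alone, the class in which 97.4% of genes were called higher, so the count and median rest partly on the filter. Oas1a, a synthase of the messenger that activates RNase L, stood at 16.4 and 16.9 FPKM in knockout, against 0.484 and 0.502 FPKM in wild type. Its relatives Oasl2, Oasl1 and Oas1g rose by 2.96, 2.68 and 2.02 on the log2 scale, and since this family holds close copies the split of reads between them is uncertain. Zcchc3, known to help MDA5 and RIG-I bind RNA, fell by 0.78, and the helicase Dhx33 fell by 0.54. Ddx3x, an abundant helicase, was not called at 81.9 and 105 FPKM in knockout, against 97.1 and 118 FPKM in wild type; it was called lower in 4 of 14 alternatives, among them equal column totals (-0.47, limma adjusted p = 0.0046).

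DNA sensors other than the group itself were called higher in 9 of 13 tested cases (median 1.0), and here too 5 entered through the knockout libraries alone. Of the 4 with the smallest p, 3 were PYHIN genes, the family of Aim2. Ifi204 stood at 7.71 and 6.83 FPKM in knockout, against 0.299 and 0.536 FPKM in wild type, and Mnda rose by 2.38 and Ifi203 by 1.57 on the log2 scale. These are near copies in a gene cluster, so their single values are uncertain. Hmgb2, a chromatin protein that binds bent DNA, rose by 1.71. Prkdc, the DNA-dependent kinase, was the member that was lower, at -0.33 (limma adjusted p = 0.0332), but its value was 0.035 with length and GC trends removed, and its call ended there and without either wild-type library or knockout library 1.

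The endosomal route rose in 8 of 9 tested cases (median 0.77). With equal column totals 5 were called higher (median 0.51). Slc15a3 entered the test through the knockout libraries alone. Unc93b1, the chaperone that carries Tlr3, Tlr7 and their relatives to endosomes, stood at 20.0 and 15.1 FPKM in knockout, against 7.21 and 6.29 FPKM in wild type (log2 fold change 1.25 ± 0.14, limma adjusted p = 3.46e-06). Ctss, a protease that cleaves these receptors and is abundant in macrophages, rose to 46.4 and 46.5 FPKM in knockout, against 2.63 and 2.07 FPKM in wild type. Slc15a3, a transporter of the endolysosome membrane, rose by 2.58 and the chaperone Hsp90b1 by 0.83 on the log2 scale, while the lysosomal membrane protein Scarb2 fell by 0.67. Tlr9, the receptor for unmethylated DNA, was at 0.395 and 0.554 FPKM in knockout, against 0.0976 and 0.0520 FPKM in wild type. Tlr13, which reads bacterial ribosomal RNA in mice, was at 0.869 and 0.908 FPKM in knockout, against 0.0824 and 0.131 FPKM in wild type, and neither was tested. Surface receptors, which do not read nucleic acids in endosomes, rose in 5 of 5 tested cases (median 2.12), among them Tlr2 by 1.43, Ly86 by 2.50, Cd14 by 2.36 and Ly96 by 2.12. Macrophage markers, a list that also holds Cd14, rose beside both groups.

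Adaptors, kinases and transcription factors, the relay between sensor and nucleus, were called higher in 12, lower in 5 and not called in 12 of 29 cases. The share called higher, 41.4%, was near the 35.2% of all tested genes, and the share called lower was 17.2%, against 30.6% of all. The list had a median of 0.13, and of -0.09 with equal column totals. Irf7, the interferon regulatory factor that amplifies interferon genes, rose to 76.9 and 70.7 FPKM in knockout, against 1.73 and 1.73 FPKM in wild type. Irf5, Relb and Ikbkg rose by 2.06, 1.98 and 1.82 on the log2 scale, and 5.2% of Ikbkg exon length overlaps G6pdx on the opposite strand, which rose by 0.52. The factor that acts first in this pathway, Irf3, stood at 32.4 and 29.8 FPKM in knockout, against 35.7 and 36.3 FPKM in wild type. That is -0.21 on the log2 scale and was not called as deposited (limma adjusted p = 0.101), while it was called lower in 4 of 14 alternatives, with values to -0.46 at equal column totals. Tbk1, the kinase below MAVS and STING, was at 11.6 and 13.8 FPKM in knockout, against 11.9 and 11.8 FPKM in wild type, and Ticam1, the adaptor of TLR3, at 8.89 and 7.99 FPKM in knockout, against 8.71 and 8.14 FPKM in wild type; both were picked after their values were seen. The related kinase Ikbke fell by 0.51, Irak2 by 1.22, Nfkbia, the inhibitor of NF-kappaB, by 0.82, and Tbkbp1, a partner of TBK1, by 0.59. Traf6 was called lower at -0.30 (limma adjusted p = 0.0439), a call that ended in 6 of 13 alternatives, among them each wild-type library left out (0.125 and 0.232) and knockout library 1 left out (0.116).

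**Figure D5:**
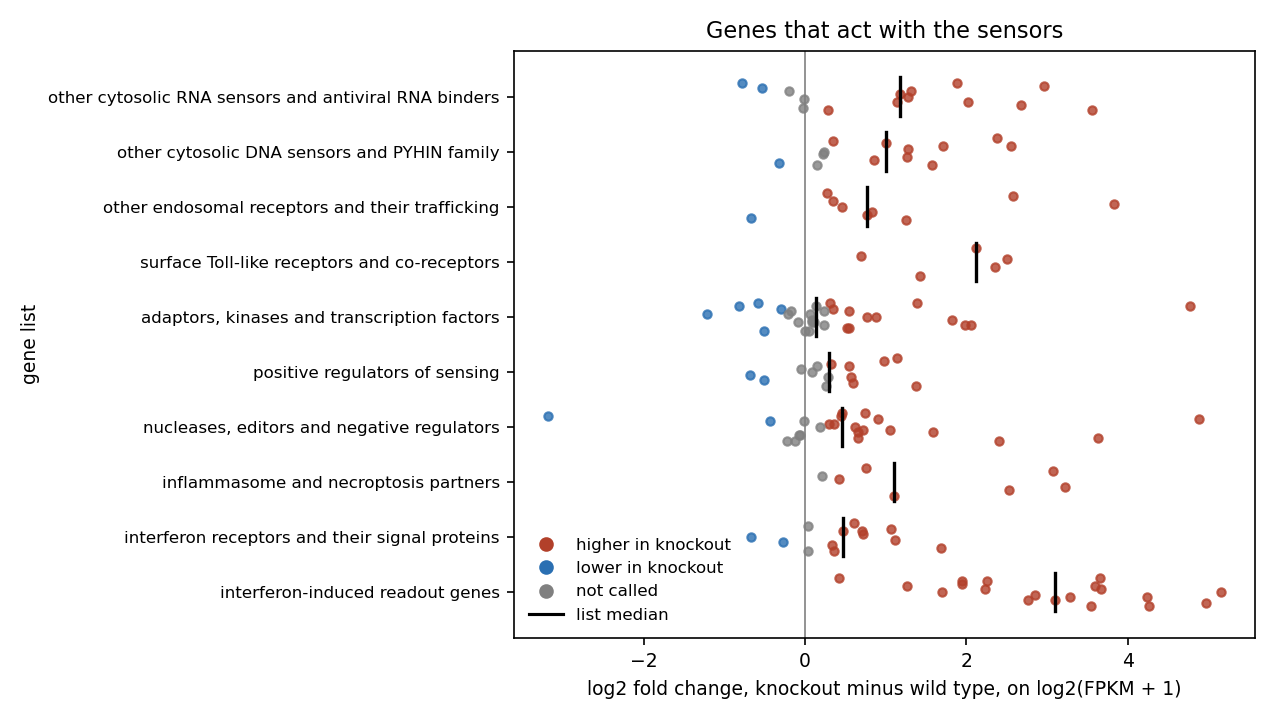
Log2 fold change of each tested gene in 10 lists of genes that act with the sensors, with the list median as a bar; an eleventh list, the interferon genes, had no tested gene. The interferon-induced list lies furthest to the right with a median of 3.10, and adaptors, kinases and transcription factors lie on both sides of 0 with a median of 0.13.

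Regulators of sensing moved both ways. Of 14 positive regulators, 7 were called higher and 2 lower, with a median of 0.30 that became 0.05 at equal column totals. Trim25, the ubiquitin ligase that activates RIG-I, stood at 6.61 and 6.61 FPKM in knockout, against 2.15 and 1.77 FPKM in wild type. Riok3 rose by 1.14 and Trim14, which acts at MAVS and whose exons overlap Nans on the other strand over 31.3% of their length, by 0.98. Trim14 entered the test through the knockout libraries alone, the class in which 97.4% of genes were called higher. Zdhhc1 and Trim32, both known to act on STING, fell by 0.68 and 0.51. Of 23 nucleases, RNA editors and negative regulators, 15 were called higher and 2 lower (median 0.46). Of these 23, 2 entered through the knockout libraries alone. Isg15, a ubiquitin-like protein, rose to 154 and 134 FPKM in knockout, against 3.19 and 4.67 FPKM in wild type, and Usp18, the protease that removes it, rose by 3.63 on the log2 scale. Pld4, an endolysosomal exonuclease that limits the supply of ligand to endosomal receptors, rose by 2.41, and Adar, the editor that marks cellular RNA as self, rose by 0.65; Adar was picked after its values were seen. Nlrx1, a mitochondrial protein known to restrain MAVS, was called lower at -0.43 (limma adjusted p = 0.00873), and this call ended without wild-type library 1 (-0.35, 0.126). The other fall was Rnaset2a, at 0.0118 and 0.138 FPKM in knockout, against 8.53 and 9.03 FPKM in wild type. Its near copy Rnaset2b was at 31.7 and 34.8 FPKM in knockout, against 21.2 and 21.3 FPKM in wild type, so the split of reads between the pair is uncertain.

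Partners of AIM2 and ZBP1 rose in 6 of 7 tested cases (median 1.10). Ripk3, the kinase that ZBP1 engages, stood at 10.8 and 9.79 FPKM in knockout, against 0.834 and 1.08 FPKM in wild type (log2 fold change 2.53 ± 0.13, limma adjusted p = 1.61e-09). Mlkl, which RIPK3 phosphorylates to permeabilise the membrane, stood at 13.2 and 16.1 FPKM in knockout, against 1.09 and 0.650 FPKM in wild type (log2 fold change 3.07 ± 0.15, limma adjusted p = 9.24e-10). Zbp1, Ripk3 and Mlkl were thus each at or near 1 FPKM or below in wild type and above 9 FPKM in both knockout libraries. Casp4, the caspase of the non-canonical inflammasome, rose by 3.22, and Pycard, the adaptor of the AIM2 inflammasome, by 1.10. Casp1, the effector caspase, was not called, at 2.00 and 2.64 FPKM in knockout, against 1.66 and 2.07 FPKM in wild type. Among the partner genes named here, Trim14, Slc15a3, Rnaset2a, Rnaset2b, Adar, Il10rb, Irf5, Pycard, Nlrx1 and Hsp90b1 have exons that overlap another gene over 10.3% to 31.3% of their length, so part of their reads may be shared.

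The interferon genes were close to absent from these libraries while genes that interferon induces were abundant in knockout. Of 18 interferon genes in the files, 15 were listed at 0 in each library and none reached 1 FPKM. Ifnb1, the interferon that most sensors induce first, was at 0.372 and 0.0756 FPKM in knockout and listed at 0 in both wild-type libraries. Ifnz was at 0.260 and 0.177 FPKM in knockout, against 0.0983 and 0.0868 FPKM in wild type, and Ifnab was listed at 0.261 FPKM in knockout library 2 alone. Of 13 receptors and signal proteins of interferon, 9 were called higher and 2 lower (median 0.47). Among those that rose were the transcription factors Irf9 by 1.11 and Stat2 by 1.06 on the log2 scale, and the receptor chain Il10rb by 0.72. Jak2 fell by 0.67, and Ifngr1, the interferon gamma receptor, was called lower at -0.27 (limma adjusted p = 0.0402), a call that ended in 5 of 14 alternatives, with adjusted p = 0.0985, 0.369 and 0.0974 without wild-type library 1, wild-type library 2 and knockout library 1. The interferon-induced genes rose in 19 of 19 tested cases with a median of 3.10, 8 of them through the filter on knockout libraries alone. Cxcl10, a chemokine, was at 36.0 and 37.3 FPKM in knockout, against 0 and 0.103 FPKM in wild type. Ifit1, which binds RNA with foreign caps, was at 23.0 and 27.5 FPKM in knockout, against 0.332 and 0.374 FPKM in wild type. Ifit3 rose by 4.24 and Bst2, a tether of enveloped viruses, by 3.28. Cxcl9, which responds mainly to interferon gamma, was under the filter and not tested. It was at 0.177 and 0.187 FPKM in knockout, against 0 and 0.0169 FPKM in wild type. With no filter all 20 interferon-induced genes were called higher, Cxcl9 included, as were 26.3% of all rows above 0.

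A RefSeq window was matched for 9815 of the 12314 tested genes. Of 354 with a match to the ISRE core, 51.4% were called higher and 19.8% lower (median log2 fold change 0.31), against 34.5% and 30.4% of 9461 genes without one (median 0.03). Matches were in 8 of the 14 windows of interferon-induced genes, 7 of the 14 of the other DNA sensors and PYHIN genes and 6 of the 15 of the other RNA sensors. They were also in 10 of the 18 windows of the interferon genes, none of which was tested. The inflammasome and necroptosis partners, of which 6 of 7 tested rose, had matches in 0 of 9 windows, the macrophage markers in 0 of 8 and the general leukocyte markers in 0 of 6. Of the other partner lists, each had 1 or 2 matches. These shares are descriptions and were not tested.

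The tested genes outside the group whose levels over the 4 libraries were nearest to the group's median profile, by Euclidean distance on log2(FPKM + 1), were Vnn1, Kifc1, Fam111a, Lhfpl2 and C77080, at distances of 0.159 to 0.367. Vnn1, the nearest, stood at 6.95 and 6.95 FPKM in knockout, against 1.39 and 1.37 FPKM in wild type.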

How the data were processed

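Polyadenylated RNA from aorta was fragmented, primed at random and made into Illumina libraries, per the labels' protocols. The authors deposited FPKM values, per the file headers, which misspell the unit. Per the submitters' processing notes, the build was mm10 and the tools included DESeq2 1.16.1, featureCounts 1.5.0-p3 and HISAT2 2.0.5, with no role stated. The program behind the FPKM values and the use of strand are not given in the sources used here, and sequencing depth is unknown. The library sums were 611767 and 632918 FPKM in knockout, against 515927 and 520478 FPKM in wild type.

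The genotype label set the groups, and replicate numbers only name libraries. Values were tested as log2(FPKM + 1) with limma 3.58.1 (R 4.3.3, intensity trend, two-sided). Genes reaching 1 FPKM in 2 or more libraries entered (12314), p-values were adjusted by Benjamini and Hochberg's method across all of these, and the threshold was 0.05. Fold changes are knockout minus wild type and understate changes of low genes. Each rests on 2 libraries per genotype, with 13.4 total degrees of freedom, most borrowed from other genes. Exact permutation was not used, since 2 against 2 libraries cannot pass the threshold.

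The members and lists were chosen with earlier results of these data known. Genes named were the members, Ggps1, up to 4 called genes per list by smallest p, up to 2 uncalled ones, called genes against their list, and the 5 nearest profiles. Those outside this rule are Tbk1, Ticam1, Adar, Rnaset2b, Ifnab and Siglech, picked after their values were seen. Positions come from GENCODE M21 (mm10) and promoters from RefSeq (GRCm38.p6). The fit was tested on simulated data. The 14 alternatives cover pseudocount, filter, scaling, estimation, each left-out library and, added after seeing the data, removal of length and GC trends and a replicate block. Results that need items withheld for evaluation are not reported here.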

Additional observations from a re-analysis of the deposited data

How the results depend on the processing

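The number of sensor genes called higher was 6 as deposited and under 12 of 14 alternatives; a filter of 5 FPKM gave 3 because fewer genes are tested, and no filter gave 9. The single lower call, Mavs, was lost without wild-type library 1, so that count ran from 0 to 1 over the left-out libraries. Partner genes called lower numbered 24 with equal column totals and 15 as deposited; the cause was not tested. By list, equal column totals gave 4 lower RNA sensors (2 as deposited), 8 lower adaptors, kinases and factors (5), 6 lower nucleases and negative regulators (2) and 5 higher genes of the endosomal route (8), and quantile normalization gave 4 lower nucleases and negative regulators. The filter of 5 FPKM gave 6 higher RNA sensors (10) and 4 higher DNA sensors (9). Leaving out libraries gave 5 to 8 higher genes of the endosomal route, the lowest without wild-type library 2. Without a filter 1 interferon gene passed, Ifnz (log2 fold change 0.16, limma adjusted p = 0.0439). Signs reversed with length and GC trends removed for Prkdc (0.035), Casp1 (-0.17) and Tbk1 (-0.032), and with equal column totals for Tbk1 (-0.16), Ticam1 (-0.23) and Tcf4 (-0.052); the cause was not tested. Over the left-out libraries Tbk1 ran from -0.035 to 0.20 and Ticam1 from -0.068 to 0.07, with -0.042 for Ticam1 without wild-type library 2. The file headers number the libraries 1 and 2 in each genotype, but nothing ties a number to a litter or batch, and same-numbered libraries deviated from their genotype means with r = 0.18 across genes. With that number as a replicate block, added after seeing the data, 4588 genes were called higher and 4044 lower, the 6 and 1 calls among the sensor genes were unchanged, and of the genes named only Ddx3x changed its call (limma adjusted p = 0.0435). Where a library was left out, the lone library of that genotype was assumed to vary like the others. Depth is unknown, so precision rests on 2 libraries per genotype.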
